A study of Arabidopsis thaliana with 236 samples.

Results

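The 141 loci described here were those of 27143 on the array whose mean level at the hours of dawn was furthest above their mean evening level, in pericycle and in cortex cells alike. For each locus the mean of the 24 and 48 h groups minus the mean of the 10, 12, 14 and 36 h groups was taken in each cell type over all arms, the 150 loci with the largest value of the smaller of these differences were kept, and 10 named clock genes were left out, of which 9 were among the 150. Levels at these hours chose the loci and are given as a description, with no test; tests use 0, 1, 2, 4, 6, 8, 16 and 20 h. All values are log2 RMA expression values, so that a difference of 1 is a doubling.

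Seedlings of Arabidopsis thaliana Col-0 were 9 days old by growth, kept on 0.1 mM KNO3 under days of 16 h of light and nights of 8 h. At dawn they were moved to 5 mM KNO3 (nitrogen arm), treated with Sinorhizobium meliloti, a nodulating soil bacterium, at an OD600 of 0.8 (rhizobium arm, 0.1 mM KNO3), or moved to fresh 0.1 mM KNO3 (standard arm). Whole roots were harvested at 13 hours from 1 to 48 h, and GFP-marked pericycle or cortex protoplasts were sorted; 0 h roots were taken before treatment and belong to no arm. Pericycle gave 41 nitrogen, 42 rhizobium, 38 standard and 5 arrays at 0 h, and cortex gave 32, 38, 37 and 3, in 80 groups of 2 to 5 arrays. The sources used here do not name the GFP lines or say whether replicates were separate cultures, so the spread that p-values are set against may be technical.

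The plant circadian clock is a loop of transcription factors. The MYB factors CCA1 and LHY accumulate around dawn and repress evening genes, the pseudo-response regulators repress CCA1 and LHY later in the day, and the RVE factors with their LNK coactivators switch on genes of the afternoon and evening. Light signalling through the phytochromes, the bZIP factors HY5 and HYH and the B-box proteins feeds into the same genes, and in roots the clock runs under cues from light and from the shoot.

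Array medians lay between 8.44 and 9.23. Several arrays stood apart from their groups. The mean of the 141 loci was 7.85 on replicate 1 of pericycle 0 h, against 9.29 to 9.39 on the other 4 arrays, and LHY was 5.65 on it. At 24 h in pericycle, nitrogen replicate 3 and rhizobium replicates 2, 3 and 4 had LNK4 (AT5G06980) at 5.27, 7.01, 5.89 and 5.04, while the standard arrays had 11.97, 11.58 and 11.52. The summed heat shock list (11 genes) was also uneven in cortex: its mean over the hours not used by the rule was 10.43 ± 0.83 on nitrogen, 10.29 ± 0.93 on rhizobium and 13.60 ± 1.02 on standard arrays (SD, n = 16, 20 and 21). Of the markers of the sorted cells, 4 of 8 stele genes were higher and 2 lower in pericycle than in cortex, and 2 of 3 cortex genes were lower. Endodermis genes (8 of 10, median 2.25) and root hair genes (7 of 9, median 1.05) were also higher in pericycle arrays. In sorted samples of this kind, fewer cells of a type and less RNA per cell cannot be told apart.

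The dawn minus evening difference of the 141 loci had a median of 1.11 in pericycle and 1.11 in cortex. The largest values were those of LNK4 (AT5G06980; 3.01 in pericycle, 4.61 in cortex), LNK3 (AT3G12320; 2.82 and 3.03), COL1 (2.81 and 2.14), AT2G46420 (2.28 and 1.85), ATH13 (1.80 and 2.95), AT5G15950 (1.71 and 2.25), SMR5 (AT1G07500; 1.78 and 1.71), AT3G53830 (1.71 and 2.24), AT2G46670 (1.68 and 3.73) and AT1G68907 (1.67 and 1.79). Among the genes left out, CCA1 (4.93 in pericycle, 5.65 in cortex), LHY (4.25 and 5.83) and LNK2 (4.21 and 4.78) were ahead of every member, and PRR7 was near 0 (0.24 and -0.04). At the limit, AT5G37250 and GolS2 (0.81 each) and BBX29, AT2G05270 and AT5G49130 (0.82 each) were just inside by their smaller difference; AT1G17970 and UGE5 (0.81) and AT4G39925, AT5G06755 and AT1G48100 (0.80) were just outside. The mean level of the members had a median of 8.99 (range 5.52 to 12.19), against 8.64 over all loci. RefSeq (TAIR10.1) listed 138 of the 141, all protein coding, and gave a symbol for 65.

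**Figure D1:**
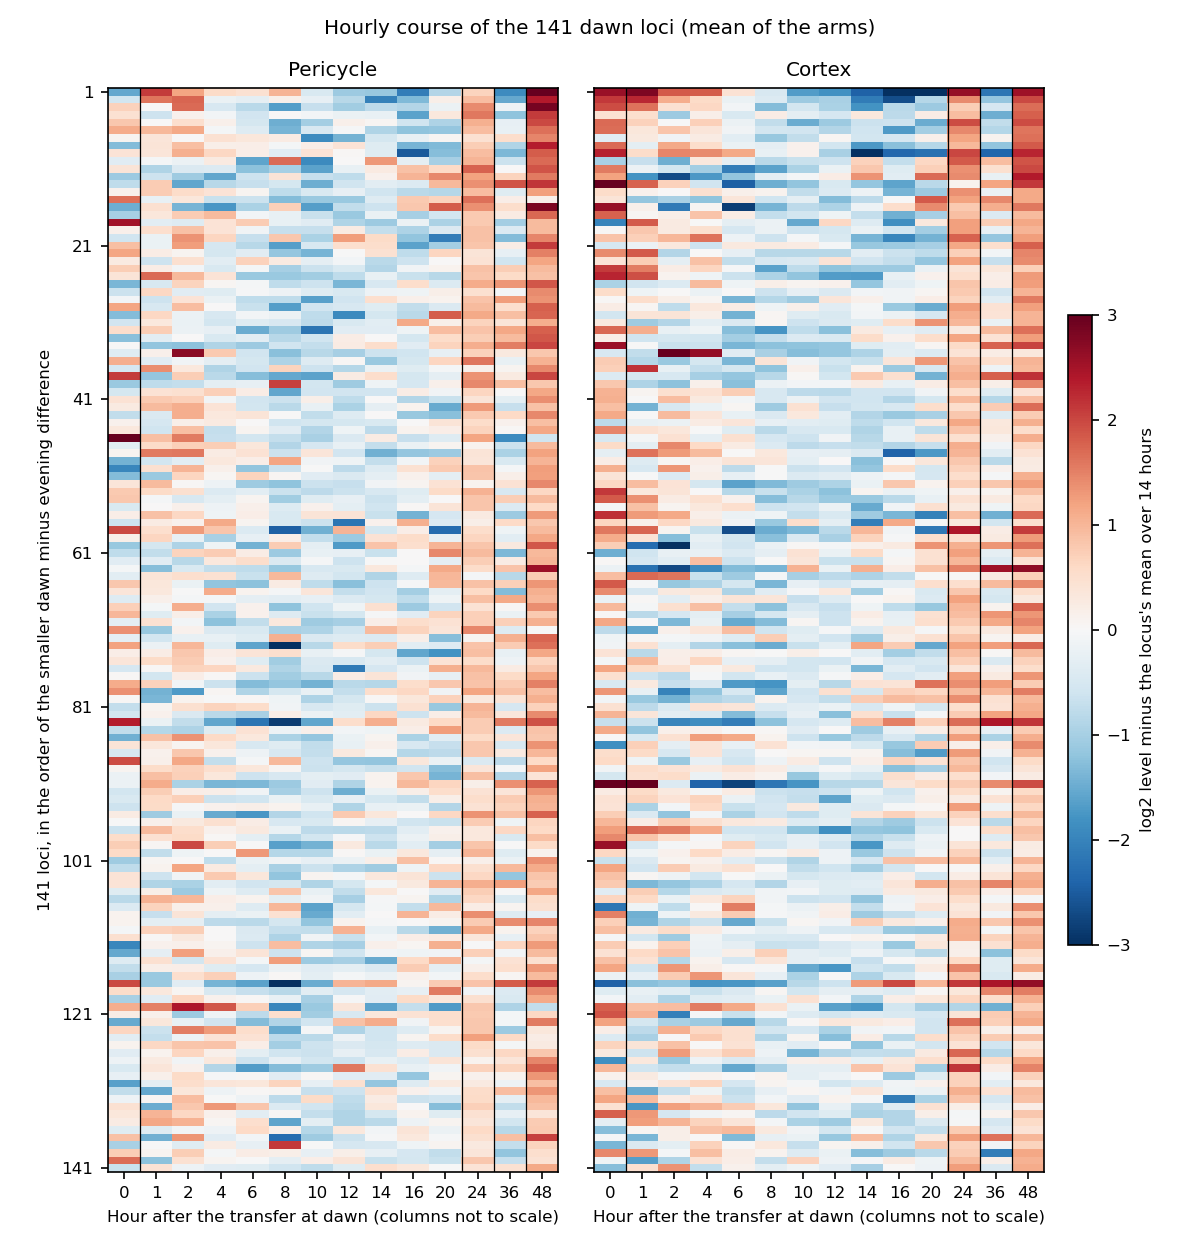
Level of each of the 141 loci (rows, ordered by the smaller dawn minus evening difference) at each hour after the transfer (columns, not to scale), as log2 difference from the locus's own mean over 14 hours, in pericycle (left) and cortex (right), averaged over the arms. The 24 and 48 h columns are red by choice of the loci; the 36 h column is blue in many rows but not in all, and 0 h is redder in cortex than in pericycle.

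Not all of the loci had a peak at dawn. The highest of the 14 hours was 24 or 48 h for 96 of 141 loci in pericycle and for 72 in cortex. At 36 h 90 loci (63.8%) were below both their 24 and 48 h levels in both cell types. The 24, 36 and 48 h levels chose the loci. These counts, and those at 36 h in the groups of genes described next, are therefore a description and support nothing. For 15 loci the 36 h level was at or above the 24 h level in both cell types: RR17, CYP84A4, HB21, LAF1, TT7, AT1G48870, AT1G14240, AT2G16980, AT4G04750, AT2G40250, AT4G25400, AT1G30320, AT4G35030, AT3G24715 and AT5G49130. A gain that runs on through both days also passes the choice of loci. In pericycle 115 of 141 loci (81.6%) and in cortex 86 (61.0%) were higher at 48 h than at 24 h, against 48.8% and 51.8% of all loci. At 0 h 79 loci (56.0%) in pericycle and 108 (76.6%) in cortex stood above their evening mean, which the choice had made low. Over all loci the shares were 52.9% and 51.0%, so the pericycle share was near that of all loci.

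Clock and light genes were 13 of the 141 and included LNK4, LNK3 and COL1, the first 3 members by the smaller difference. The group had a median of 1.21 in pericycle and 1.24 in cortex. LNK4 and LNK3 belong to the night light-inducible and clock-regulated family. In cortex LNK4 (AT5G06980) had a lowest, median and highest value of 10.92, 11.60 and 12.54 on the 18 dawn arrays, against 5.09, 6.69 and 10.29 on the 32 evening arrays. The sides did not overlap, which held for 3 of the 141 loci in cortex (with ATH13 and AT5G15950; 0.0184% of all loci), by hours that chose them. In pericycle LNK4 had 5.04, 11.52 and 12.47 on 19 dawn arrays, against 4.87, 6.83 and 10.41 on 36 evening arrays, and the sides overlapped, as they did for all 141 loci there. The low dawn values were those of the treated 24 h arrays named above.

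LNK3 (AT3G12320) had 6.54, 11.85 and 13.12 on the pericycle dawn arrays, against 5.57, 8.95 and 11.73 on the evening arrays, and in cortex 9.94, 11.67 and 12.27 against 5.13, 8.76 and 11.51. COL1, a CONSTANS-like B-box factor, had 6.08, 10.37 and 12.50 against 5.33, 7.04 and 10.71 in pericycle, and 5.56, 10.00 and 11.84 against 5.19, 7.28 and 11.31 in cortex. For both genes the dawn median was above the evening median, and the sides overlapped in each cell type. The other members of the group, given as pericycle and cortex differences, were the B-box proteins COL5 (1.45, 1.04), BBX28 (1.01, 2.22), BBX29 (0.82, 1.96) and BBX30 (1.27, 2.28), the Dof factor CDF2, a repressor of CONSTANS (0.82, 1.06), the HY5 homologue HYH (0.94, 1.13), HFR1, a bHLH factor of far-red signalling (1.82, 1.12), the COP1 partner SPA3 (1.21, 1.24), the phytochrome substrate PKS1 (0.91, 0.83) and the MYB factor LAF1 (0.90, 1.09). At 36 h 10 of the 13 were below their 24 and 48 h levels in both cell types, the exceptions being HFR1, PKS1 and LAF1.

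Plastid and pigment genes numbered 11, and all 11 were lower at 36 h than at 24 and 48 h in both cell types. ATH13, a plastid kinase of the ABC1 family, had 11.05, 12.91 and 13.82 on pericycle dawn arrays, against 8.07, 11.15 and 13.37 on evening arrays. In cortex it had 11.89, 12.74 and 13.42 against 6.50, 9.67 and 11.82, with no overlap. The rest, as pericycle and cortex differences, were GUN5, the H subunit of magnesium chelatase (1.60, 1.20), CH1, which makes chlorophyll b (0.90, 1.13), the early light-inducible protein ELIP2 (1.00, 2.49), HCF107 (1.26, 1.58), the thylakoid kinase STN7 (0.92, 2.04), the plastid sigma factor SIGE (0.92, 1.14), the solanesyl diphosphate synthase SPS1 (1.31, 1.51), the photolyase PHR1 (0.94, 1.26), MSRB1 (1.36, 1.06) and the tyrosine aminotransferase TAT7 (1.05, 1.43). Photosynthesis genes as a class did not follow them: in a list of 20 green tissue genes that includes GUN5 and ELIP2, 6 had a positive difference in both cell types and the median of the smaller difference was -0.23, against -0.13 over all loci.

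Hormone and development genes numbered 12, of which 6 stayed low at 36 h in both cell types. They included ABA1, the zeaxanthin epoxidase of abscisic acid synthesis (1.68 in pericycle, 1.37 in cortex), GA3, the ent-kaurene oxidase of gibberellin synthesis (1.27, 0.86), LBO1, an oxidoreductase of strigolactone synthesis (2.21, 1.65), the type-A cytokinin response regulator RR17 (1.88, 1.53), the homeodomain factors BLH1 (1.78, 1.22), HB21 (1.50, 0.98) and HB53 (1.21, 0.90), SRS4 (1.16, 1.19) and SMR5 (AT1G07500), an inhibitor of cyclin-dependent kinases. Of 4 phenylpropanoid genes, the flavonoid enzymes 4CL3 (0.95, 1.09) and TT7 (0.86, 1.81), PAL4 (0.94, 0.88) and CYP84A4 (1.75, 1.16), none was below its 24 and 48 h levels at 36 h in both cell types. All 6 transport genes were, among them the transporters ABCG30 (1.23, 1.23) and ABCG41 (1.02, 1.23), PHT4;5 (1.24, 1.09) and MTPB1 (0.98, 0.87). The 85 loci in no group had medians of 1.12 in pericycle and 1.06 in cortex. These groups were drawn up with the values in view and carry no test.

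By arm, the dawn minus evening difference was of like size. The loci were chosen on its mean over the arms, so positive values in each arm follow in large part from the choice. Agreement between arms was not tested. Its median over the 141 loci was 1.16 in nitrogen, 1.08 in rhizobium and 1.26 in standard arrays of pericycle, and 1.19, 1.12 and 1.24 in cortex. It was above 0 in all 6 combinations of arm and cell type for 120 loci, in 5 of 6 for 20, and in 4 or fewer for 1 locus, FSD1. In all 6 it reached 1 for 10 loci: LNK4, LNK3, COL1, ATH13, AT5G15950, SMR5, AT2G31550, ABA1, SPS1 and HCF107. Chosen on 1 arm alone, the same number of places would have gone to largely other loci, with 60 of the members (42.6%) shared for nitrogen, 47 (33.3%) for rhizobium and 61 (43.3%) for standard.

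**Figure D2:**
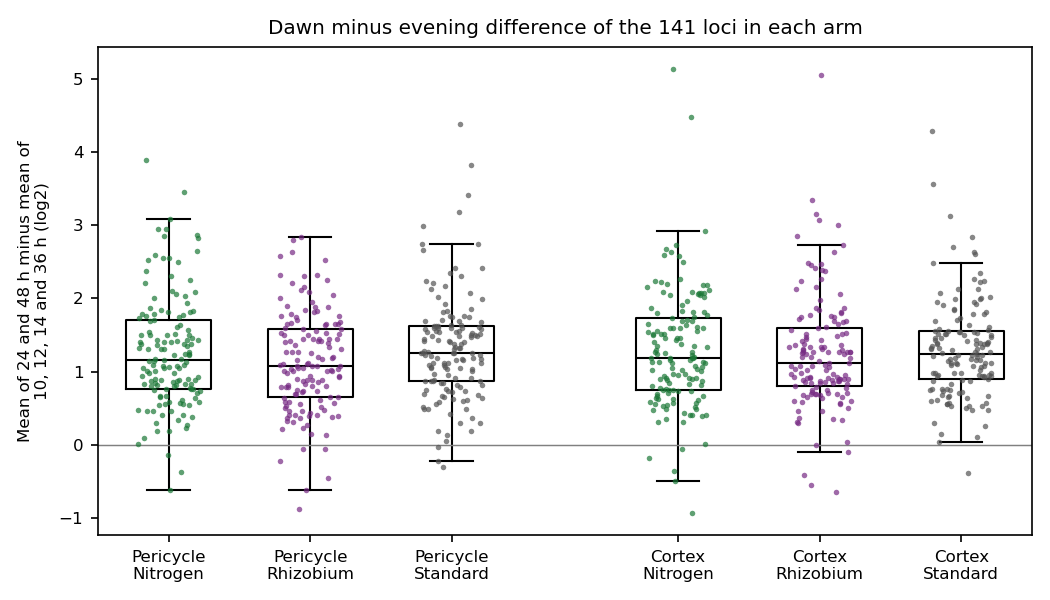
Dawn minus evening difference (mean of 24 and 48 h minus mean of 10, 12, 14 and 36 h, log2) of each of the 141 loci (points) in each arm and cell type; boxes span the middle of the values, with the median as a line. Medians lie between 1.08 and 1.26 in all 6 combinations.

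Set against each arm's own first-day evening level, the medians of the arms lay further apart at 36 h than at dawn. The levels themselves did not show this in pericycle. There the mean of the 141 loci in nitrogen, rhizobium and standard was 9.46, 9.69 and 10.10 at 24 h, 9.21, 8.98 and 9.05 at 36 h, and 10.32, 10.16 and 10.14 at 48 h. In cortex it was 9.58, 9.94 and 10.17 at 24 h, and 9.03, 8.89 and 9.52 at 36 h. Against the mean of 10, 12 and 14 h of the same arm, the median of the 141 loci in pericycle was 0.99 at 24 h, 0.77 at 36 h and 1.94 at 48 h in nitrogen, 0.90, 0.08 and 1.34 in rhizobium, and 1.33, 0.45 and 1.39 in standard. In cortex it was 1.24, 0.70 and 1.65 in nitrogen, 1.06, 0.09 and 1.33 in rhizobium, and 1.35, 0.84 and 1.49 in standard. On the mean of rhizobium arrays at 36 h 77 of 141 loci were above their first-day evening level in pericycle and 75 in cortex, in nitrogen 102 and 105, and in standard 90 and 103. The rhizobium arrays at 36 h differed among themselves. The mean of the 141 loci was 8.43 and 9.53 on the 2 pericycle arrays and 9.33, 8.58 and 8.75 on the 3 cortex arrays. These hours were used to choose the loci, and the difference between arms was not tested.

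The mean of the 141 loci per array traced the same course. In pericycle nitrogen arrays it was 9.75 ± 0.27 at 2 h (n = 4), 7.91 ± 0.19 at 10 h (n = 3), 8.64 ± 1.14 at 12 h (n = 2), 8.72 ± 0.91 at 14 h (n = 4), and 9.46 ± 0.43 at 24 h, 9.21 ± 0.40 at 36 h and 10.32 ± 0.21 at 48 h (n = 3 each, SD). Its evening arrays spread widely, with 9.44 and 7.84 at 12 h and 8.28, 9.58, 7.65 and 9.35 at 14 h. Of these, 3 were near the 24 h mean. In pericycle standard arrays it was 9.22 ± 0.06 at 2 h, 8.58 ± 0.14 at 10 h, 8.70 ± 0.63 at 12 h, 8.85 ± 0.66 at 14 h, 10.10 ± 0.27 at 24 h, 9.05 ± 0.28 at 36 h and 10.14 ± 0.42 at 48 h (n = 3 each). The highest standard arrays were at 9.42 at 12 h and 9.56 at 14 h, so the evening spread was wide in this arm too. In cortex nitrogen arrays the lowest hour was 16 h, at 8.10 ± 0.10 (n = 3), and in cortex standard arrays it was 8 h, at 8.69 ± 0.14 (n = 3).

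**Figure D3:**
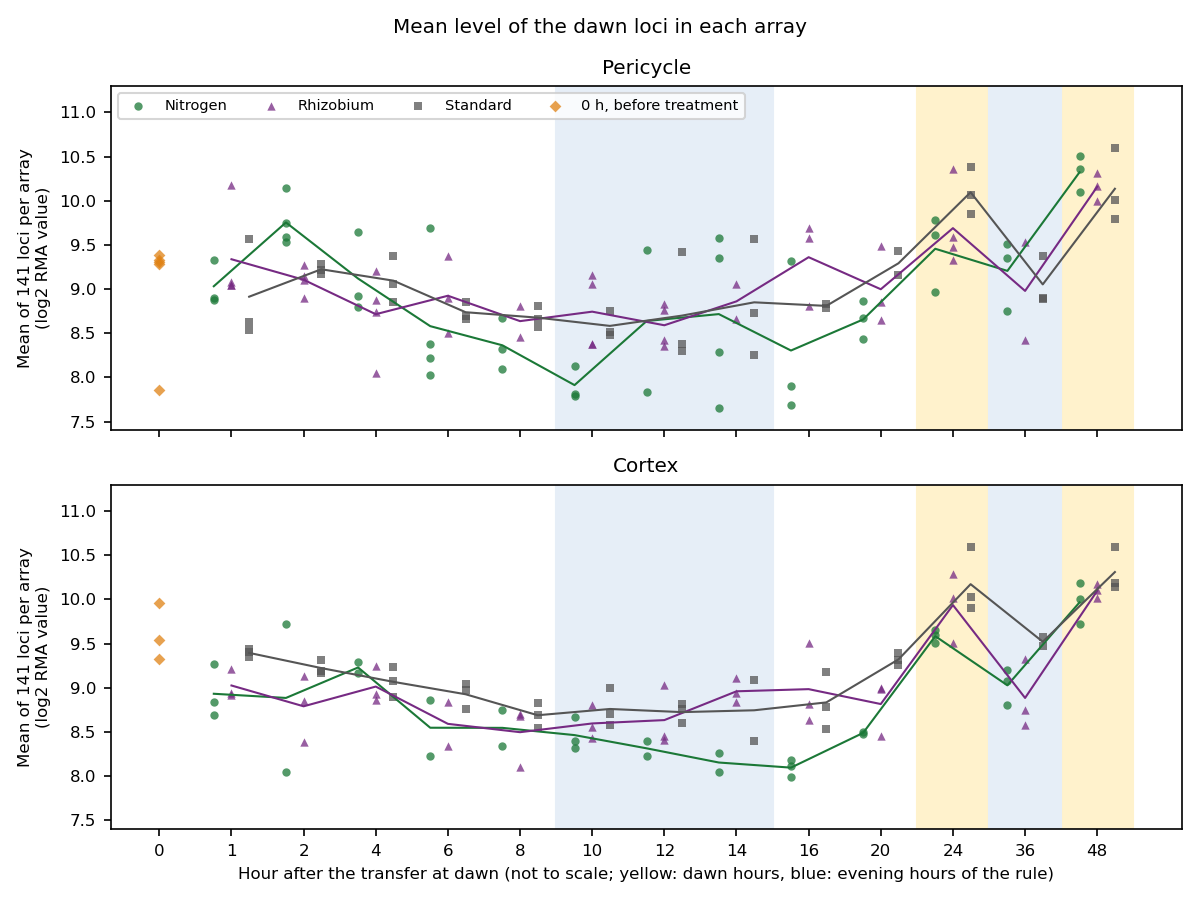
Mean level of the 141 loci on each array (points, log2 RMA value) by hour after the transfer (not to scale), in pericycle (top) and cortex (bottom), with lines through the group means of the 3 arms. Yellow and blue mark the dawn and evening hours that chose the loci; the lowest 0 h point in pericycle, 7.85, is replicate 1.

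The dawn minus evening difference of single genes is given here by arm, as a description. Its hours chose the loci, and differences between arms were not tested. LNK4 (AT5G06980) differed by 2.56 in nitrogen, 2.08 in rhizobium and 4.38 in standard arrays of pericycle, and by 4.48, 5.06 and 4.28 in cortex (SE 0.80 to 0.85). COL1 differed by 3.89, 1.90 and 2.66 in pericycle and by 2.58, 2.47 and 1.38 in cortex. In pericycle COL1 had 11.77, 10.97 and 9.17 on the nitrogen arrays at 24 h, 11.34, 6.08, 6.68 and 8.19 on the rhizobium arrays, and 8.15, 10.81 and 9.35 on the standard arrays. The rhizobium arrays spread most, and the arms overlapped.

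NLP9 (AT3G59580), a NIN-like transcription factor of the family that acts in nitrate signalling, did not follow a daily peak. Its standard arrays in pericycle had 6.88, 10.59 and 8.29 at 1 h, 11.37, 12.31 and 12.37 at 24 h, 12.13, 12.99 and 12.23 at 36 h and 12.07, 12.68 and 13.07 at 48 h. Its nitrogen arrays had 6.58, 5.85 and 6.86 at 1 h, 6.20, 6.31 and 10.64 at 24 h, 5.83, 5.83 and 5.23 at 36 h and 4.85, 5.15 and 5.42 at 48 h. Its rhizobium arrays had 7.93, 6.27, 8.86 and 10.75 at 1 h, 13.71, 11.76, 11.77 and 8.99 at 24 h, 11.71 and 12.86 at 36 h and 12.97, 12.89 and 12.32 at 48 h. Standard and rhizobium arrays at 36 h were thus within the range of, or above, those at 24 h. At the hours listed here, nitrogen levels were low apart from 1 array at 24 h.

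**Figure D4:**
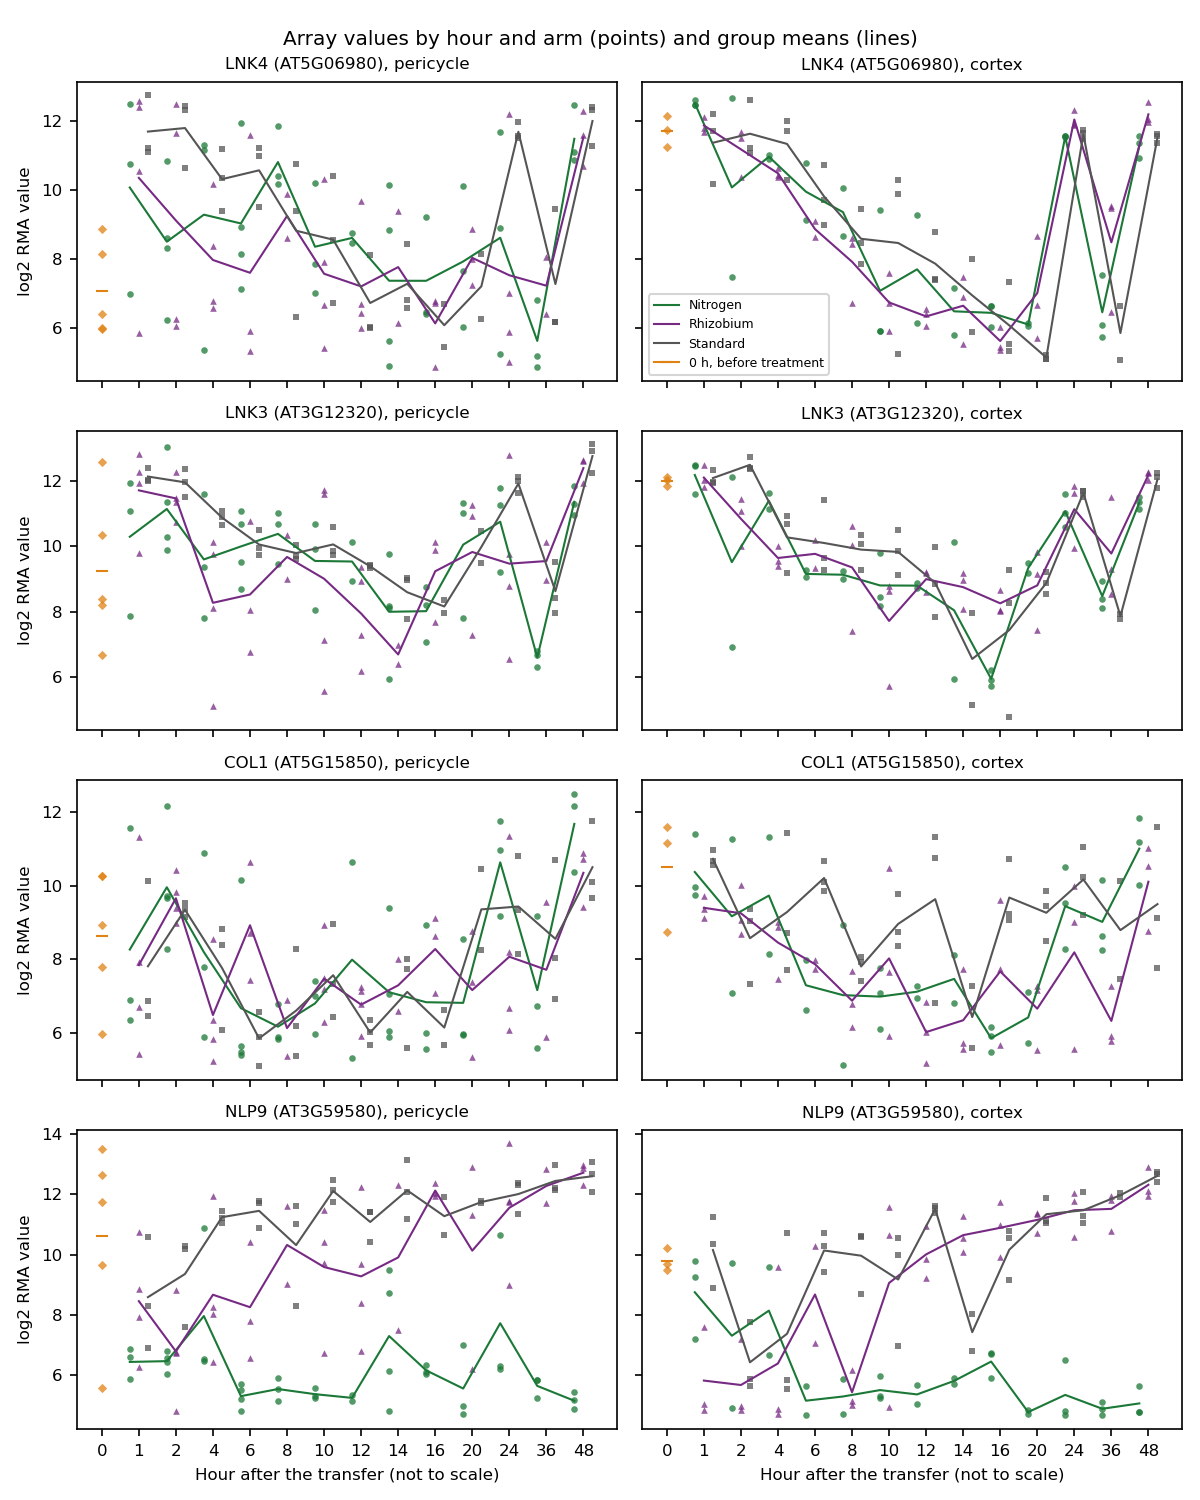
Array values (points) and group means (lines) of LNK4, LNK3, COL1 and NLP9 by hour after the transfer (not to scale; log2 RMA value), in pericycle (left) and cortex (right), by arm. In cortex LNK4 is at 10.92 or more on every 24 and 48 h array; NLP9 is at 11.94 or more at 48 h on standard and rhizobium arrays and at 5.62 or less on nitrogen arrays.

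The first test on hours that did not choose the loci set the morning of the first day (mean of 1 and 2 h) against 6 h, over the 3 arms. Here 10 members were higher and 0 lower in pericycle, by limma with adjusted p below 0.05, against 1.44% and 1.42% of all loci (2.86% either way). In cortex 7 were higher and 0 lower, against 1.09% and 2.04% of all loci (3.13% either way). The median over the members was 0.49 in pericycle (106 of 141 above 0) and 0.31 in cortex (91 above 0), against 0.06 and 0.08 over all loci. COL5 and AT1G14240 were higher in both cell types.

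COL5 had a lowest, median and highest value of 10.61, 11.70 and 12.81 on 21 pericycle arrays at 1 and 2 h, against 9.38, 10.68 and 11.31 on 10 arrays at 6 h. In cortex it had 9.29, 11.87 and 12.90 on 17 arrays, against 9.34, 10.10 and 11.66 on 7. The sides overlapped, and the differences were 1.15 ± 0.35 (SE, adjusted p = 0.047) and 1.44 ± 0.41 (adjusted p = 0.028). AT1G14240 was higher by 1.56 ± 0.36 (adjusted p = 0.0054) in pericycle and 2.26 ± 0.42 (adjusted p = 0.00019) in cortex.

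The other pericycle calls were the cytochrome P450 gene CYP709B2 (2.44 ± 0.46, adjusted p = 0.00055), the beta-glucosidase gene BGLU28 (2.01 ± 0.59, adjusted p = 0.038), 4CL3 (1.98 ± 0.51, adjusted p = 0.015), LNK3 (AT3G12320; 1.93 ± 0.49, adjusted p = 0.016), CYP84A4 (1.75 ± 0.51, adjusted p = 0.034), HYH (1.03 ± 0.28, adjusted p = 0.021), AT5G15950 (1.44 ± 0.34, adjusted p = 0.0086) and AT5G15948 (1.33 ± 0.32, adjusted p = 0.008). Whether the probes of the neighbouring locus numbers AT5G15948 and AT5G15950 share sequence was not tested. In cortex they were AT2G40250 (4.11 ± 0.63, adjusted p = 3.4e-06), RR17 (3.67 ± 0.70, adjusted p = 0.00032), ELIP2 (3.57 ± 1.02, adjusted p = 0.029), AT3G30580 (2.73 ± 0.70, adjusted p = 0.012) and AT4G25400 (2.23 ± 0.50, adjusted p = 0.0031). RR17 had 5.54, 10.15 and 12.39 on the 17 cortex arrays at 1 and 2 h, against 5.25, 5.66 and 7.02 on the 7 arrays at 6 h. In pericycle it had 4.66, 6.07 and 12.41 against 5.40, 6.06 and 10.12, and did not pass; the sides overlapped in both cell types, and the difference between cell types in this fall was not tested.

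These counts rest on few arrays: without replicate 1 of every group there was 1 call in pericycle and 1 in cortex, and without replicate 2 or 3 there were 2 or 3 in pericycle. AT2G40250 in cortex passed whichever replicate number was left out. CYP709B2 in pericycle missed the threshold only without replicate 1. COL5, HYH and LNK3 in pericycle missed it without replicate 1, 2 or 3 and with pericycle fitted alone. With pericycle fitted alone AT5G15950, AT5G15948, CYP84A4, BGLU28 and 4CL3 missed it too, and only CYP709B2 and AT1G14240 kept their calls. The hours from 1 to 20 h follow the transfer as well as the dawn, so time of day and time since the transfer cannot be told apart in them.

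A later reference, the mean of 8 and 16 h, was added after the data were seen. Against it, 1 and 2 h were higher for 36 members and lower for 2 in pericycle (7.02% and 4.21% of all loci), and higher for 30 and lower for 4 in cortex (2.98% and 2.45%). Higher in both were 16 members: LNK4, LNK3, COL1, COL5, BBX28, HYH, ABA1, TAT7, CYP709B2, BGLU28, ERF38, AT2G46670, AT3G13040, AT3G56290, AT5G15948 and AT5G15950; AT3G29410 was lower in both. LNK4 (AT5G06980) had 7.50, 11.72 and 12.66 on the early cortex arrays, against 5.35, 6.73 and 10.06 on 17 arrays at 8 and 16 h, a difference of 4.1 ± 0.56 (adjusted p = 1.5e-08). In pericycle it had 5.87, 10.84 and 12.75 against 4.89, 7.71 and 11.86, a difference of 2.18 ± 0.55 (adjusted p = 0.0048). LNK3 (AT3G12320) differed by 2.24 ± 0.43 in pericycle and 3.21 ± 0.44 in cortex, COL5 by 2.48 ± 0.30 and 2.49 ± 0.31, and COL1 by 2.12 ± 0.50 and 2.1 ± 0.52. For LNK4 the sides overlapped in both cell types.

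By arm, the morning difference from 6 h had a median over the members of 0.85 in nitrogen, 0.07 in rhizobium and 0.38 in standard arrays of pericycle, and of 0.35, 0.18 and 0.17 in cortex. With the nitrogen and rhizobium arms alone, an alternative added later, 9 members passed in pericycle (1.93% of all loci) and 1 in cortex (0.111%).

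The lights went off at 16 h, so that 20 h lay in the middle of the night. No array was taken between 20 and 24 h. For 20 h minus 16 h over the arms, 1 member was higher in pericycle (0.409% of all loci) and 0 in cortex (0.0%); by unadjusted p below 0.05 there were 7 higher and 4 lower in pericycle (2137 and 1570 of the 27143 loci), and 7 higher and 1 lower in cortex (335 and 392). The member was FSD1, a plastid iron superoxide dismutase, with 4.51, 9.72 and 9.27 on nitrogen, 4.94, 5.87 and 9.91 on rhizobium and 5.37 and 9.82 on standard arrays at 20 h. At 16 h it had 6.70, 5.75 and 5.00, 5.88, 5.06 and 6.65, and 5.26 and 5.14, the last after averaging a near-identical pair. The 20 h arrays fell into a low and a high set within each arm, the sides overlapped, and the difference of 1.82 ± 0.47 (adjusted p = 0.041) was 0.77 without replicate 2 and 1.07 without replicate 3, neither past the threshold. LNK4 (AT5G06980) was still low at 20 h in cortex, at 6.06 and 6.17 on nitrogen, 5.71, 6.67 and 8.68 on rhizobium and 5.10, 5.24 and 5.13 on standard arrays, and was at 10.92 or more on every cortex array at 24 and 48 h.

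Before treatment, 0 h arrays were set against 8 h standard arrays, which also differ by the transfer. In pericycle 6 members were higher and 1 lower (4.99% and 3.18% of all loci, 8.17% either way), with a median of 0.17; without replicate 1 of 0 h, 14 were higher and 1 lower (6.92% and 4.43%), with a median of 0.53. In cortex 2 were higher and 0 lower (0.0958% and 0.291%, 0.387% either way), with a median of 0.89 against 0.11 over all loci. In that comparison the 3 arrays at 0 h were all above the 3 standard arrays at 8 h for 40 members, against 14.4% of all loci; in pericycle all 5 were above all 3 for 10 members, against 6.65%.

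The pericycle calls included 2 flavonoid genes. TT7 had 13.29, 8.49, 13.60, 13.78 and 13.80 at 0 h, against 8.06, 6.20 and 5.82 at 8 h, and 4CL3 had 12.81, 11.66, 13.42, 14.07 and 13.88, against 8.76, 9.13 and 8.21. The sides did not overlap for either gene, with differences of 5.90 ± 1.35 (adjusted p = 0.0026) and 4.47 ± 0.95 (adjusted p = 0.0014). TT7 missed the threshold without replicate 3, while 4CL3 and AT5G15950 passed in every setting tried. Of the list of 11 flavonoid genes, which includes both, 5 were higher and 0 lower, with a median of 1.81. The others higher were AT4G04750 (5.32 ± 1.31, adjusted p = 0.005, lost without replicate 2), AT5G15950 (3.15 ± 0.65, adjusted p = 0.00099), AT3G56230 (3.08 ± 1.05, adjusted p = 0.048, lost under 9 of 13 settings) and AT1G14240 (2.52 ± 0.67, adjusted p = 0.01, lost without replicate 2 or 3), and AT2G05270 was lower (-3.54 ± 1.08, adjusted p = 0.025, lost under 4 of 12 settings, among them without replicate 1 or 2). Endodermis markers averaged 10.50 ± 1.82 at 0 h and 8.14 ± 1.82 at 8 h on these arrays (SD, n = 5 and 3), and their part in the result was not tested.

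In cortex RR17 had 13.05, 12.11 and 11.60 at 0 h, against 6.75, 6.08 and 6.28 at 8 h, and AT1G48870 had 11.22, 11.14 and 9.64, against 6.13, 7.61 and 6.06. Neither overlapped, with differences of 5.88 ± 1.26 (adjusted p = 0.005) and 4.07 ± 0.84 (adjusted p = 0.0028); RR17 missed the threshold when any of replicates 1, 2 or 3 was left out, and AT1G48870 without replicate 1 or 2. LNK4 lay apart in the cell types at 0 h. LNK4 (AT5G06980) had 8.16, 8.86, 6.01, 5.98 and 6.41 in pericycle and 11.74, 11.25 and 12.15 in cortex at 0 h, against 9.40, 6.32 and 10.76 in pericycle and 9.45, 7.85 and 8.47 in cortex at 8 h. All 3 cortex arrays at 0 h were above all 5 pericycle arrays, though both were taken at dawn; this difference was noticed in the values and was not tested.

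Nitrogen and rhizobium arrays were each compared with standard arrays over 1, 2, 4, 6, 8, 16 and 20 h; both comparisons share the standard arrays. With nitrogen, 5 members were higher and 12 lower in pericycle (4.47% and 6.57% of all loci), and 7 higher and 26 lower in cortex (12.8% and 8.94%, 21.7% either way), with medians of -0.05 and -0.29. With rhizobium, 6 were higher and 5 lower in pericycle (8.86% and 6.34%), and 7 higher and 20 lower in cortex (9.54% and 8.14%), with medians of -0.02 and -0.27.

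NLP9 was lower in all 4 comparisons. In pericycle NLP9 (AT3G59580) had a lowest, median and highest value of 4.68, 6.03 and 10.88 on 23 nitrogen arrays, 4.81, 8.83 and 12.90 on 23 rhizobium arrays and 6.88, 11.01 and 11.90 on 19 standard arrays. Nitrogen arrays were lowest and all arms overlapped; the differences were -4.38 ± 0.47 (adjusted p = 1.9e-12) for nitrogen and -1.32 ± 0.48 (adjusted p = 0.044) for rhizobium. In cortex it had 4.65, 6.29 and 9.79, 4.69, 7.13 and 11.76, and 5.54, 10.34 and 11.88 in the same order, with differences of -2.82 ± 0.50 (adjusted p = 5.7e-06) and -1.65 ± 0.47 (adjusted p = 0.007). The rhizobium call in pericycle was lost without replicate 2 or 3 and under 4 other settings. The one in cortex was lost without replicate 2 and with the heat shock mean of an array in the model (-1.21, adjusted p = 0.26).

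In pericycle with nitrogen, LBO1 (-2.84 ± 0.47, adjusted p = 6.3e-06), HB53 (-2.49 ± 0.47, adjusted p = 8.2e-05), AT3G30580 (-2.49, adjusted p = 0.00012), AT2G40250 (-1.71, adjusted p = 0.0042), MGDC, a galactolipid synthase gene (-1.58, adjusted p = 0.0014), CDF2 (-1.51 ± 0.42, adjusted p = 0.0095) and the asparaginase gene ASPGB1 (-1.42, adjusted p = 0.003) were also lower. LBO1 had 4.55, 7.27 and 10.61 on nitrogen arrays, against 7.53, 9.99 and 12.24 on standard arrays. TT7 (1.88 ± 0.58, adjusted p = 0.022), 4CL3 (1.64 ± 0.41, adjusted p = 0.0035), AT5G05280 (1.56, adjusted p = 0.026), HCF107 (1.49 ± 0.46, adjusted p = 0.02) and AT3G56290 (1.13, adjusted p = 0.015) were higher. TT7 was at 0.75 without replicate 3 and no longer passed, and it lost its call under 4 of 13 settings. HCF107 lost its call without replicate 1, 2 or 3 and with the heat shock mean in the model. AT5G05280 lost it under 5 of 13 settings, CDF2 under 3 and AT3G56290 under 2. For 4CL3, AT2G40250 and ASPGB1 it was lost under 1 each. NLP9, LBO1, HB53, MGDC and AT3G30580 passed in every setting.

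With rhizobium, TT7 (2.30 ± 0.58, adjusted p = 0.0037) and 4CL3 (1.51 ± 0.41, adjusted p = 0.0069) were higher in pericycle too, with HFR1 (1.97 ± 0.63, adjusted p = 0.022), AT2G45220 (1.63, adjusted p = 0.028), the profilin gene PRF4 (1.40, adjusted p = 0.025) and AT5G65170. TT7 had 5.74, 11.85 and 13.92 on rhizobium arrays, 5.72, 9.57 and 14.01 on nitrogen arrays and 5.63, 8.01 and 11.61 on standard arrays, and the arms overlapped. Without replicate 3 no member passed with rhizobium in pericycle, and without replicate 2 there were 2. On the same arrays 3 of 10 endodermis and 5 of 9 root hair markers were higher with rhizobium; their part in the result was not tested.

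In cortex most called members were lower than on standard arrays. On the same arrays 5 of 8 stele markers were higher with nitrogen and 3 with rhizobium, and 2 of 3 root cap markers with nitrogen and 0 with rhizobium. The stele list averaged 9.20 ± 0.42 on nitrogen, 8.91 ± 0.56 on rhizobium and 8.27 ± 0.26 on standard arrays (SD, n = 16, 20 and 21). Its part in the result was not tested. AT1G72490 had a lowest, median and highest value of 4.78, 5.61 and 10.19 on 16 nitrogen arrays, 4.47, 5.79 and 10.69 on 20 rhizobium arrays and 5.24, 11.23 and 12.37 on 21 standard arrays, with differences of -3.83 ± 0.64 (adjusted p = 1.3e-06) and -4.36 ± 0.60 (adjusted p = 3e-09). AT3G53830 had 6.18, 8.56 and 12.19, 5.16, 8.06 and 11.89, and 9.40, 11.97 and 12.96 on the same arrays, with differences of -2.93 ± 0.51 (adjusted p = 2.8e-06) and -3.70 ± 0.48 (adjusted p = 2.1e-10). Standard arrays were the highest for both loci and overlapped the treated ones.

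Of members with known roles in cortex, GA3 (-2.17 ± 0.43, adjusted p = 4.6e-05, with nitrogen and -1.88 ± 0.40, adjusted p = 0.00017, with rhizobium), BBX29 (-1.91 ± 0.36, adjusted p = 1.4e-05 and -1.86 ± 0.33, adjusted p = 5.5e-06) and COL1 (-1.38 ± 0.50, adjusted p = 0.034 and -1.34 ± 0.47, adjusted p = 0.032) were lower with both treatments. GA3 had 7.10, 9.03 and 11.05 on nitrogen, 6.4, 9.53 and 11.40 on rhizobium and 9.67, 11.02 and 12.49 on standard arrays. MGDC (-1.96, adjusted p = 5.1e-05), ASPGB1 (-1.87, adjusted p = 5.4e-05), HB53 (-1.45 ± 0.50) and LAF1 (-1.13) were lower with nitrogen, and CH1 (-0.99, adjusted p = 0.0091) with rhizobium. Higher with nitrogen were AT3G19615 (1.99, adjusted p = 0.0014), PDF2.5 (1.73), AT5G21950 (1.65), 4CL3 (1.58 ± 0.44, adjusted p = 0.0044) and SRS4 (1.24, adjusted p = 0.047). Higher with rhizobium were AT4G14226 (1.81), AT3G19615 (1.73), HINT3 (1.69, adjusted p = 0.00013), ERF38 (1.38), bZIP5 (1.38) and LEA4-5 (1.18).

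All 11 heat shock genes were lower in cortex too, with a median of -3.24 with nitrogen and -3.34 with rhizobium, and 5 of the 10 left-out clock genes were lower in each. When the model also held each array's heat shock mean, 10 members passed with nitrogen in cortex, against 33 without it. With rhizobium 8 passed, against 27. The heat shock mean itself differed between the arms in cortex, so this model leaves less to test for any locus. The share of all loci that passed in it is not given here, and the cause of the drop was not tested. AT1G72490, NLP9, MGDC and AT5G15940 with nitrogen, and AT1G72490, AT3G53830, AT5G15940 and HINT3 with rhizobium, passed in every setting tried, this one included. GA3 was then at -1.49 (adjusted p = 0.062) with nitrogen and -1.17 (adjusted p = 0.19) with rhizobium, BBX29 at -0.45 and -0.32, and COL1 at -1.21 and -1.16. AT3G53830 with nitrogen was at -1.24 (adjusted p = 0.2), and none of these passed. Nor did the members named above as higher with nitrogen: AT3G19615 was at 1.08, AT5G21950 at 0.77, PDF2.5 at 0.28, 4CL3 at 0.15 and SRS4 at -0.05. Of those named as higher with rhizobium, AT4G14226, AT3G19615, ERF38, bZIP5 and LEA4-5 did not pass either. Without replicate 2 there were 13 calls with each treatment, and without replicate 3 there were 20 with nitrogen and 13 with rhizobium.

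**Figure D5:**
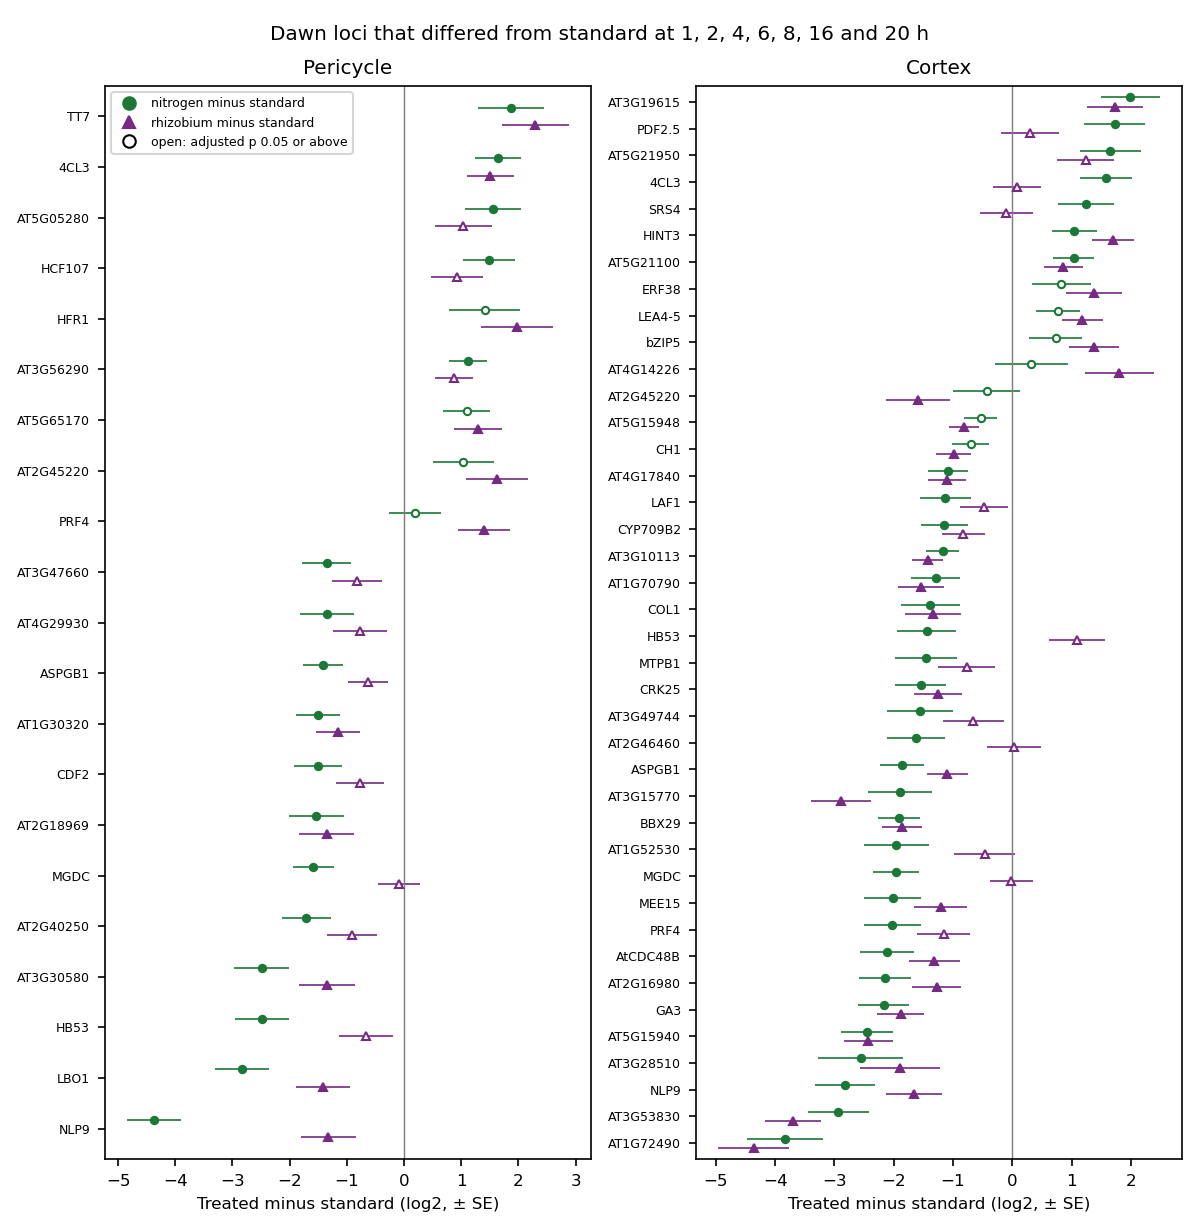
Difference of nitrogen (circles) and rhizobium (triangles) from standard arrays over 1, 2, 4, 6, 8, 16 and 20 h (log2, ± SE) for every member that passed in either comparison, in pericycle (left) and cortex (right); open symbols did not pass. Most called loci in cortex lie below 0 with both treatments, which share the standard arrays, and NLP9 is the lowest in pericycle.

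The daily swing itself, taken as the mean of 1, 2 and 20 h minus the mean of 6, 8 and 16 h, was compared between arms. No member passed in pericycle with nitrogen (0.0184% of all loci higher, 0.0% lower) or rhizobium (0.0% each way), nor in cortex with rhizobium (0.0995% higher, 0.00737% lower). By unadjusted p below 0.05 these had 10 higher and 2 lower, 0 higher and 5 lower, and 4 higher and 8 lower members, against 1193 and 939, 802 and 574, and 710 and 671 of the 27143 loci. In cortex with nitrogen 1 member, AT1G53550, had a lower swing (-3.08 ± 0.80, adjusted p = 0.043; 0.391% of all loci higher and 0.0589% lower). The median swing of the members was 0.81 in nitrogen, 0.10 in rhizobium and 0.41 in standard arrays of pericycle and 0.37, 0.16 and 0.45 in cortex.

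Between cell types, over the 3 arms and the same hours, 37 members were higher and 27 lower in pericycle than in cortex, against 19.1% and 20.5% of all loci (39.6% either way). PAL4 (2.34 ± 0.27, adjusted p = 5.1e-13), ELIP2 (2.24 ± 0.41, adjusted p = 4e-06), GolS2, which starts raffinose synthesis (1.89 ± 0.27, adjusted p = 3.3e-09), and the late embryogenesis protein gene LEA4-5 (1.72 ± 0.20, adjusted p = 1.9e-12) were highest in pericycle. AT1G47497 (-1.70, adjusted p = 8e-08), AT2G46460 (-1.59, adjusted p = 4.9e-07) and the metal-binding protein gene HIPP27 (-1.46 ± 0.25, adjusted p = 6.3e-07) were lowest. Among the clock and light genes HFR1 (1.22) and BBX29 (0.92) were higher and COL1 (-0.82) lower. With the replicate number as a block 34 members passed, against 64, and ELIP2 (0.77), BBX29 and HFR1 did not. That fit compares the cell types at a reference replicate of each, so its values depend on which replicate is the reference. No conclusion is drawn from this drop. HFR1 also missed the threshold with the heat shock covariate (0.63, adjusted p = 0.19), and COL1 without replicate 1 or 2. PAL4, GolS2, LEA4-5, AT1G47497, AT2G46460 and HIPP27 passed in every setting. Endodermis and root hair markers were also higher in the pericycle arrays, and their part in these values was not tested. For the swing between cell types no member passed (0 higher, 0 lower by limma, against 0.00737% and 0.0405% of all loci). By unadjusted p below 0.05 there were 11 higher and 5 lower (874 and 797 of the 27143 loci). With so few loci passing at all, this does not show that the swing was alike in the cell types.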

How the data were processed

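Expression was measured on 236 single-colour NimbleGen arrays designed on TAIR10. The deposited values are log2 intensities made with RMA, per the submitters' processing notes; its version is not given in the sources used here. Arrays were selected after quality control, per the series record, which lists 7 h but neither 8 nor 36 h and names epidermal cells in 1 sentence; the sample titles were used. The labels give 12 days of age beside 9 days of growth.

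Rows of a locus (31524 rows, 27143 loci) were averaged. Pericycle standard 16 h replicates 2 and 3 (r = 0.999) were counted as 1 array, leaving 235. One mean for each of 80 groups was fitted with limma 3.58.1 (R 4.3.3, data.table version 1.17.8), with Benjamini-Hochberg adjustment over all 27143 loci and calls at adjusted p below 0.05. The script was tested on simulated data. Tables and figures used Python 3.11.15, pandas 2.3.3, numpy 2.4.6 and matplotlib 3.10.9. Array number limits the precision. The mean residual correlation of arrays of the same replicate number was 0.0063 in pericycle and 0.0013 in cortex, so arrays were not paired.

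The members, gene lists and tests were chosen with earlier results of these data known. Named were the 10 largest rule values, the 5 largest changes each way per test, loci at the limit, the clock genes left out, members of the lists and members that illustrate a role. Alternatives were other scaling, row choice, dim loci left out, array weights, each cell type fitted alone, a replicate block, a heat shock covariate and each replicate left out. Symbols are from RefSeq; no sequence was used here.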

Additional observations from a re-analysis of the deposited data

Results flagged for a closer look

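TT7 had 1 array far below the others at 0 h in pericycle: replicate 2 was at 8.49, while the other 4 arrays lay between 13.29 and 13.80. Chance alone marks about 1 in 20 groups in this way. The locus AT1G53550 differed in swing between arms of cortex: its mean of 1, 2 and 20 h minus its mean of 6, 8 and 16 h was lower by a log2 difference of -3.08 with nitrogen than in standard. At 6 h it had 10.40 and 5.62 on the nitrogen arrays, against 4.43, 4.88 and 4.39 on the standard arrays, and at 1 h 4.58, 5.27 and 4.84 against 7.97, 4.47 and 6.16. The call was lost without replicate 1, 2 or 3, with cortex fitted alone, with array weights and with the heat shock covariate.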

How the results depend on the processing

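Counts of called members moved with single replicates and with other settings. Leaving out each replicate number in turn gave 3 to 15 calls for 0 h minus 8 h in pericycle (7 with all arrays) and 0 to 2 in cortex (2), 1 to 12 for the morning in pericycle (10) and 1 to 8 in cortex (7), 0 to 1 for the night in pericycle (1), 9 to 21 for nitrogen in pericycle (17) and 13 to 34 in cortex (33), 0 to 12 for rhizobium in pericycle (11) and 13 to 27 in cortex (27), 0 to 1 for the swing with rhizobium in pericycle (0) and with nitrogen in cortex (1), and 41 to 64 between cell types (64). Without replicate 1 of pericycle 0 h there were 15 calls. With each cell type fitted alone there were 2 morning, 0 night and 3 rhizobium calls in pericycle, and in cortex 5 at 0 h, 15 in the morning, 41 with rhizobium and 0 for the nitrogen swing. Array weights gave 2 night and 20 rhizobium calls in pericycle, and in cortex 11 at 0 h, 2 at night, 56 with rhizobium, 0 for the nitrogen swing and 4 for the rhizobium swing. Centred arrays gave 13 calls at 0 h in pericycle. Without loci under the 0.25 quantile of mean level, the night call in pericycle and the nitrogen swing call in cortex became 0. The row with the highest mean gave 0 night calls in pericycle and the near-identical pair kept apart gave 2. The heat shock covariate left 10 nitrogen, 8 rhizobium and 0 nitrogen swing calls in cortex and turned SRS4 with nitrogen to -0.0507. Alternatives added later gave 38 and 34 morning calls in pericycle and cortex with 8 and 16 h in place of 6 h, and 1 morning call in cortex and 0 night calls in pericycle with the treated arms alone. Members chosen on 1 arm shared 60, 47 and 61 loci with the 141. Of 903 alternatives of 70 named locus tests, 745 kept the call, 157 lost it and 1 turned direction. The causes were not tested, except that leaving out arrays or loci reduces what is tested.

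Arrays were not paired by replicate number, since the mean residual correlation of same-numbered arrays was near 0. A mean near 0 cannot exclude that some arrays were paired. Correlations over 0.1 were found for 14.2% of same-numbered and 19.1% of other pairs in pericycle, and for 9.09% and 5.67% in cortex. With the replicate block there were 34 calls between cell types, against 64. That fit compares the cell types at a reference replicate of each, so this count depends on the reference and no conclusion is drawn from it. The block moved no other count of calls by over 1.5 times.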

Other observations

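Among the first 150 loci, 147 were in the RefSeq annotation, and 5 pairs of them were direct neighbours on a chromosome: MEE15 and AT2G16980, ABCG41 and ABCG30, AT5G15940 and AT5G15950, AT5G20370 and PHT4;5, and ABCF5 and AT5G64850. None overlapped, and 9 more pairs had 1 to 10 genes between them, such as PRR9 and CCA1 with 3 and COL1 and AT5G15940 with 9. The members not in the annotation, AT5G15948, AT5G05282 and AT5G08220, were left out of these counts. Whether they overlap other members, such as AT5G15950 or AT5G05280, was not examined. Of the hours not used to choose the members, 8 h was the lowest for 52 members in pericycle (36.9%, against 19.1% of all loci) and 16 h for 34 in cortex (24.1%, against 9.35%), and 2 h was the highest for 47 in pericycle (33.3%, against 12.2%). The other cell type was nearer the share of all loci each time. There 8 h was the lowest for 21 in cortex (14.9%, against 12.4%) and 16 h for 20 in pericycle (14.2%, against 17.1%). In cortex 2 h was the highest for 23 (16.3%, against 16.1%).

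Other gene lists differed in how many members had a positive dawn minus evening difference. Of 12 evening clock genes 4 had a positive difference in both cell types, with a median of the smaller difference of -0.32; of 14 starch genes 2 had one, with a median of -0.51. Of 31 light and photoperiod genes, 20 had one (median 0.16), and all 6 of a list of other day-phased clock genes, which includes LNK3 and LNK4, had one (median 0.51), against 8040 of 27143 loci.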
